A study of Mus musculus with 2 samples.

Results

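The genes described here are 38 protein-coding genes that run mitosis and build the spindle, of 21853 protein-coding genes annotated on 21 chromosomes in GENCODE mouse release M21. They were taken by name from a list of mitotic cyclins, kinases, checkpoint proteins, kinetochore subunits, motors and cytokinesis factors, and all 38 names were found in the annotation. Open chromatin was mapped in primary haematopoietic stem cells by ATAC-seq, an assay whose transposase cuts and tags DNA that nucleosomes leave free. Donors were adult C57BL/6J mice, 5 to 6 weeks old, sex was not collected, and no genetic change or treatment is given. The 2 libraries form 1 group, replicates 1 and 2, and carry the same donor identifier, and separate animals are not stated, so the spread between them may be technical. The sorting markers of the cells are not given. The starting quantity was 50000 cells for replicate 2 and is not given for replicate 1. In bulk libraries, a larger share of cells with an open site and a more open site in each cell cannot be told apart.

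A cell enters mitosis when cyclin B and its kinase CDK1 are switched on by a CDC25 phosphatase. Aurora and polo-like kinases then build the spindle, kinetochores attach chromosomes to it, and a checkpoint holds back the anaphase-promoting complex until attachment is complete. Most of these genes are transcribed late in the cell cycle, and adult blood stem cells are known to divide rarely. Their promoters commonly hold a cell cycle homology region, the CHR, which the MuvB complex binds either with repressive partners in resting cells or with B-MYB and FOXM1 in dividing cells. CCAAT boxes, which are bound by the factor NF-Y, are common upstream of it.

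Peaks came from the deposited lists on mm10. The conservative list holds peaks that passed a threshold on the irreproducible discovery rate (IDR), a measure of how well peaks rank alike in 2 sets of calls, and the lists of single replicates come in an IDR thresholded and a more permissive pseudoreplicated form. Overlapping peaks were merged into regions, and a promoter peak is a region whose summit lies within 1 kb of a transcription start site (TSS) of the gene. Signal is the authors' value per peak, on a scale of its own in each list, so genes were compared within a list by percentile, the share of genes with a promoter peak in that list that had lower signal. The depth behind each value is unknown, since peak lists hold no read counts. The conservative list held 31532 regions, the IDR list of replicate 1 held 34588 and that of replicate 2 held 22434. Of 14 stem cell markers 7 (50%) had a promoter peak in the conservative list, near the 51.5% of all protein-coding genes, among them Kit, Flt3 and Meis1, while Ly6a, Procr, Slamf1, Gata2, Mecom, Fgd5 and Hoxb5 had none there. The pseudoreplicated lists held 13 of the 14 in replicate 1 (63.4% of all genes) and 11 in replicate 2 (61.8%), and Ly6a was in neither. Of 10 neutrophil markers none had a promoter peak in the conservative list. The IDR list of replicate 1 held 5 of them (52% of all genes) and that of replicate 2 held 0 (45.6%). In the pseudoreplicated lists the counts were 7 in replicate 1 (63.4% of all genes) and 1 in replicate 2 (61.8%). Erythroid, B cell and T cell markers had one in 2 of 8 cases each in the conservative list, beside 51.5% of all genes. They were Hemgn (11.12), Epor (9.83), Pax5 (9.34), Ebf1 (6.18), Cd3d (13.16) and Cd5 (6.26). Cd3d was above Flt3 (11.44), the highest of the stem cell markers. The pseudoreplicated list of replicate 1 held 3 of 8 of each kind (63.4% of all genes). That of replicate 2 held 3 erythroid, 2 B cell and 2 T cell markers (61.8%). The part of other cells in the values below was not tested.

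Promoter sequences of 6 members are shown because they hold both elements named above in bases that no annotated exon covers. They are the members of highest signal among the 7 with such a stretch, and each is a stretch of 200 bases within the sequence upstream of a RefSeq start on GRCm38.p6, read 5′ to 3′ along the gene. Capitals mark the CHR (TTTGAA or TTCGAA) and the CCAAT box (CCAAT), each on either strand.
Ccnb2: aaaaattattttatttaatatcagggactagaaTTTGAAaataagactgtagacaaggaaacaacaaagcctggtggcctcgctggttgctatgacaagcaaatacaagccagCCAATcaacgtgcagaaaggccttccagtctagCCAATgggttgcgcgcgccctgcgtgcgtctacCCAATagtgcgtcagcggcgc
Bub1b: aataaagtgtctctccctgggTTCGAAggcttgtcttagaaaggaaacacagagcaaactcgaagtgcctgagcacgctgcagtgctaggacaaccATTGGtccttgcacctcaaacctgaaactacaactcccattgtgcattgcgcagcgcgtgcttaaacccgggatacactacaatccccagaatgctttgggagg
Top2a: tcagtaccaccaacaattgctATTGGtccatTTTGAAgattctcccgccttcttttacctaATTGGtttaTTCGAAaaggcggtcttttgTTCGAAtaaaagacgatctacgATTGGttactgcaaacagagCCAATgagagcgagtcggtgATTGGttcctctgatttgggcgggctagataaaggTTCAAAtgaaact
Kif11: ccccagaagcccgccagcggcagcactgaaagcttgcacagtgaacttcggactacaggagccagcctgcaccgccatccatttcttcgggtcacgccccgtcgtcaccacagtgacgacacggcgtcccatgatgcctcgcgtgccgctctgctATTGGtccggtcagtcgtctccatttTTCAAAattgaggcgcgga
Cdc20: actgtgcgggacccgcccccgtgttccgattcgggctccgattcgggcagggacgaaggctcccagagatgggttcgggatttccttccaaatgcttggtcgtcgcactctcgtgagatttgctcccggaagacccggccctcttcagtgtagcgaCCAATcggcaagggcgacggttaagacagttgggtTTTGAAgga
Cdk1: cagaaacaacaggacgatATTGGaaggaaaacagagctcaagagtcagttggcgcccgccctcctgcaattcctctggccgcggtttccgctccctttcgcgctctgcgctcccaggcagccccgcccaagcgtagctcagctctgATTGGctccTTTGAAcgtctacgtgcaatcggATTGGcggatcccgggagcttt
The Ccnb2 stretch lies at chr9:70421555-70421754 on the minus strand, Bub1b at chr2:118598002-118598201 on the plus strand and Top2a at chr11:99024200-99024399 on the minus strand. Those of Kif11, Cdc20 and Cdk1 lie at chr19:37376182-37376381 (plus), chr4:118437353-118437552 (minus) and chr10:69352939-69353138 (minus). Top2a shows 4 CHR words and 5 CCAAT boxes in this stretch. Kif11 and Cdc20 show 1 of each near the start, with the CHR at -19 and -18, counted from the start to the first base of the word. In Ccnb2 the 3 CCAAT boxes begin at -87, -54 and -21, 33 bases apart. The marked CHR of Ccnb2, at -167, lies upstream of all 3, and another CHR begins at 4, beyond the end of the stretch.

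All 38 mitosis genes had a promoter peak in the conservative list, where 51.5% of all protein-coding genes had one. The IDR list of replicate 1 held a promoter peak of all 38 (52% of all genes), and that of replicate 2 of 36 (45.6%), with 44.2% of all genes in both. In the pseudoreplicated lists the count was 38 in replicate 1 (63.4% of all genes) and 38 in replicate 2 (61.8%). It was also 38 in the IDR thresholded list of both replicates (56% of all genes), the replicated list (64.9%) and the pooled pseudoreplicated list (66%). Most members were in the upper part of the signal range. The members' median was 12.9, from 6.66 to 17.38, beside a median of 9.81 over the 11258 genes with a promoter peak. The members' median percentile was 83.9. Of the 38, 31 were above the median of those genes, which by construction holds for 50%, and 24 were in the top 25%. By each library's own IDR list, the members' median percentile was 83.9 (replicate 1) and 80.4 (replicate 2). With 1 group of 2 libraries, and members chosen as a list, these shares are descriptions with no test. Equal numbers of regions, 22434 in each replicate, gave 37 members in replicate 1 and 36 in replicate 2, with 36 in both, beside 37.6% of all genes in both.

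**Figure D1:**
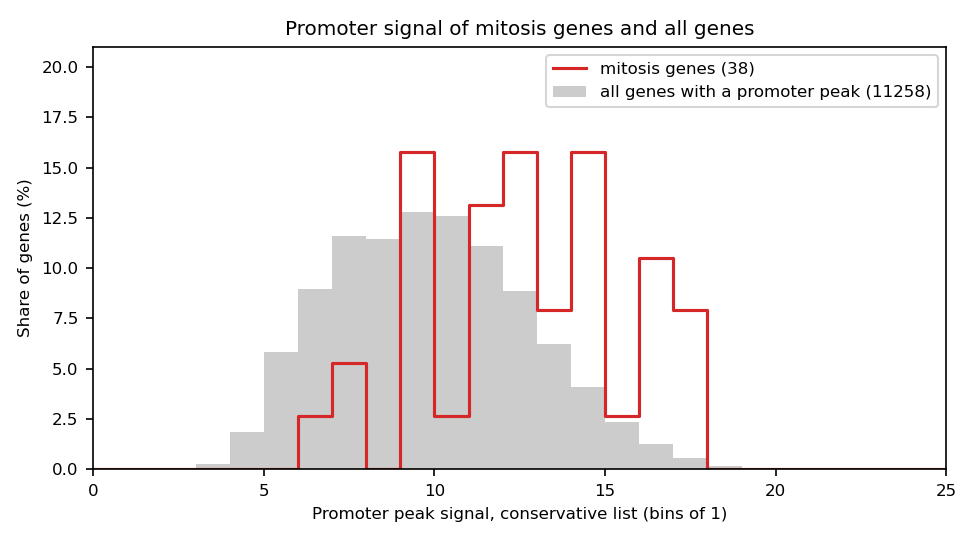
Share of genes (y axis, %) by promoter signal in the conservative list (x axis, bins of 1), for all 11258 genes with a promoter peak (grey bars) and the 38 mitosis genes (red line). The mitosis genes spread from 6.66 to 17.38, and 31 of them lie above the median of 9.81.

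Of the 5 genes that drive mitotic entry, Cdc25c, Ccna2 and Ccnb2 stood at percentile 94.4 or above in the conservative list. Cdc25c, the phosphatase that activates CDK1, had a signal of 17.12 in the conservative list, 18.73 in replicate 1 and 13.50 in replicate 2. It stood at percentile 99.6 of replicate 1 and 98.1 of replicate 2, high in both libraries. Ccna2, encoding cyclin A2, had 15.43 in the conservative list, 14.59 in replicate 1 and 14.51 in replicate 2. Its rank was higher in replicate 2, at the percentile 99.3 against 88.7. Ccnb2 and Ccnb1, which encode the B-type cyclins, had conservative signals of 14.69 and 12.92. For Ccnb1 the replicates gave 13.88 and 9.64. Cdk1, the kinase itself, was the lowest of the 5 at 11.15, with 10.51 in replicate 1 and 10.23 in replicate 2. Its percentile was 46.5 in replicate 1 and 80.1 in replicate 2, so the libraries placed it differently.

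Foxm1 had the lowest promoter signal of all 38 genes. It encodes the transcription factor that activates many genes of this set late in the cell cycle. Its signal was 6.66 in the conservative list (percentile 13.4) and 7.80 in replicate 1. In replicate 2 it was 4.71 and present in the pseudoreplicated list only, with an IDR score of 354 in the ranked list, under the 540 at which thresholded lists begin. Its summit lay at -373 bp from the nearest Foxm1 TSS (negative is upstream), the farthest of all members, in a region that also serves the neighbouring gene Rhno1. Mki67, whose product Ki-67 coats mitotic chromosomes and is the usual marker of proliferation, had 9.26 in the conservative list, at percentile 43.0. Its replicate signals were 8.89 and 8.92, near each other in value, which is the percentile 27.8 in replicate 1 and 64.0 in replicate 2. Top2a, the topoisomerase that untangles sister chromatids, had 13.29, with 13.72 in replicate 1 and 9.46 in replicate 2.

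The spindle kinases differed widely among themselves. Tpx2, the activator that brings Aurora A to the spindle, had the highest promoter signal of the set at 17.38, rank 70 of the 11258 genes with a promoter peak. Its replicate values were 18.43 and 13.31, at percentiles 99.4 and 97.8. Aurka, which encodes Aurora A, had 11.56, in a region shared with the divergent gene Cstf1. The polo-like kinases were lower. Plk1, needed for spindle assembly and mitotic entry, had 7.72, with 9.42 in replicate 1 and 5.23 in replicate 2, where its percentile was 7.0. Plk4, which starts centriole duplication, had 9.57, and its rank differed most between the libraries, at percentile 25.3 among IDR peaks of replicate 1 and 71.1 among those of replicate 2.

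In the chromosomal passenger complex, which corrects faulty attachments and guides cytokinesis, the kinase subunit was the low member. Cdca8 (borealin) had 14.35, Incenp, the scaffold, 13.00 and Birc5 (survivin) 12.96. Aurkb, which encodes the kinase Aurora B, had 7.94, at percentile 27.8. It was low in both libraries, with 8.36 in replicate 1 and 6.52 in replicate 2. Birc5 was far from even between them, with 16.12 (percentile 95.8) in replicate 1 and 8.21 (percentile 53.3) in replicate 2. The Cdca8 peak lay at -53 bp from an inner start site, and this was the 1 gene that lost its promoter peak when only the 5′-most TSS was used.

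The spindle checkpoint and anaphase genes were led by the separation machinery. Pttg1 (securin), which holds separase inactive until anaphase, had 17.30, with 18.36 in replicate 1 and 13.24 in replicate 2. Espl1 (separase), the protease that cuts cohesin, had 16.09, with 16.51 and 12.86. Both genes stood at percentile 96.8 or above in the IDR list of each replicate. The checkpoint kinase gene Bub1 had 14.89, with 14.43 in replicate 1 and 12.88 in replicate 2. Ttk, which encodes the checkpoint kinase MPS1, had 14.70, with 15.29 and 12.26. Bub1b, encoding BUBR1 of the checkpoint complex, was lower than both at 13.57. Mad2l1, encoding the checkpoint protein MAD2, had 11.62. Cdc20, the activator of the anaphase-promoting complex that the checkpoint blocks, had 11.22. Bub3, the adaptor that places the BUB kinases at kinetochores, was the lowest of the 8 at 9.83, which is percentile 50.4.

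At the kinetochore, 3 genes had nearly equal high signal. Nuf2 had 16.63, Cenpf, a protein of the outer corona, 16.59 and Spc25 16.52. In the replicates Cenpf had 16.88 and 13.70, high in each. Nuf2 and Spc25 encode subunits of the NDC80 complex, which binds microtubules. Nuf2 had the higher value in replicate 1 (18.44 against 16.93) and Spc25 in replicate 2 (13.49 against 10.36). The percentile of Nuf2 was 99.4 in replicate 1 and 81.3 in replicate 2. Its IDR score in the ranked list of both replicates, 654, was the lowest of all members. Ndc80 itself had 12.30, Cenpa, the centromeric histone, 12.47 and Cenpe, a kinetochore motor, 11.88. Knl1, the scaffold that recruits the BUB proteins, had 9.91, with 10.32 in replicate 1. In replicate 2 it had 7.50, in the pseudoreplicated list only, with an IDR score of 513, just under 540. That value stood at percentile 56.5 of the pseudoreplicated list, so Knl1 missed the IDR list with a signal in the middle of the range. Knl1 and Foxm1 were the 2 members in the IDR list of replicate 1 and not of replicate 2, as were 7.74% of all genes, and 0 members were the reverse (1.39% of all genes).

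Motor and midzone genes ranged from 9.09 to 14.68. Kif2c, a motor that takes microtubules apart, had 14.68, and Prc1, which bundles microtubules at the midzone, had 14.26 with 16.64 in replicate 1 and 13.25 in replicate 2. Kif11 (Eg5), the motor that pushes spindle poles apart, had 12.79. Kif20a, a motor of the midzone, had 10.76, in a region shared with Brd8. Kif23, the motor of the centralspindlin complex, was the lowest of the 5 at 9.09, with 10.41 in replicate 1 and 6.58 in replicate 2. Of the cytokinesis genes, Ect2, which activates RHOA at the cleavage site, had 12.12 and Anln (anillin), the scaffold of the contractile ring, 9.57.

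**Figure D2:**
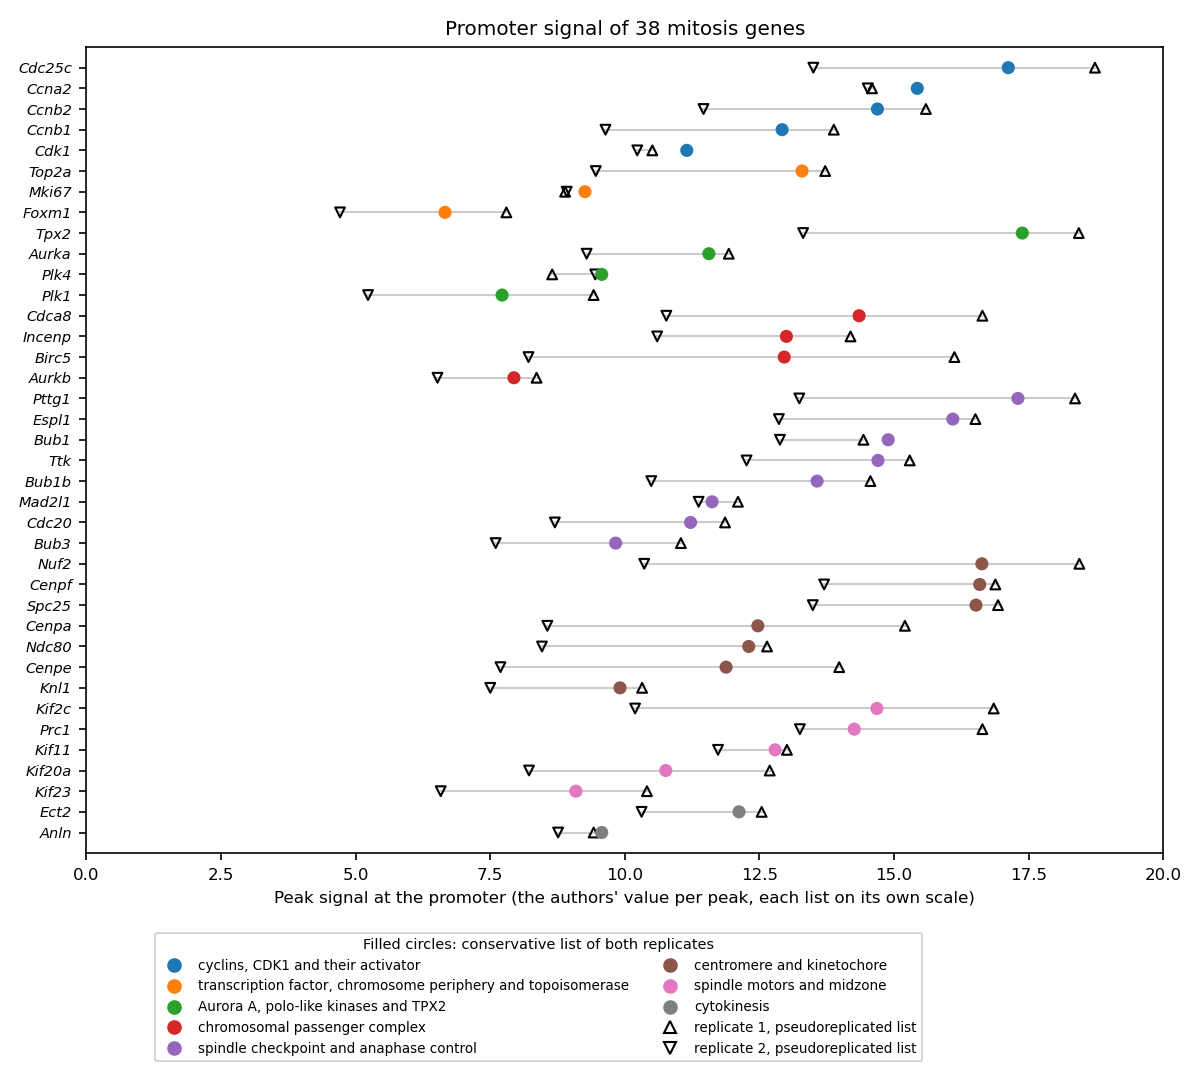
Promoter signal (x axis, the authors' value per peak) of each of the 38 genes (y axis, grouped by role), in the conservative list (filled circles, coloured by role) and in the pseudoreplicated list of replicate 1 (triangles up) and replicate 2 (triangles down), joined by a grey line. Each list has a scale of its own, and Foxm1 (6.66), Plk1 (7.72) and Aurkb (7.94) have the lowest circles.

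The libraries ranked the members in a broadly shared order, with a few genes far from it. Over the pseudoreplicated lists, in which all 38 had a promoter peak in each replicate, the members' percentiles had a Spearman coefficient of 0.73 between replicates. The same coefficient of signal was 0.80 over the 13008 genes with a promoter peak in both lists. These are coefficients across genes of 2 libraries, given as descriptions. The largest difference was at Plk4, by 40.4 percentile points. Cdk1, Mki67 and Anln also ranked higher in replicate 2, and Cenpe and Birc5 in replicate 1. Foxm1, Aurkb and Plk1 ranked below the median in both libraries. Each of the 38 genes had an IDR score of at least 654 in the ranked list of both replicates, and 30 of them had the highest score of 1000.

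**Figure D3:**
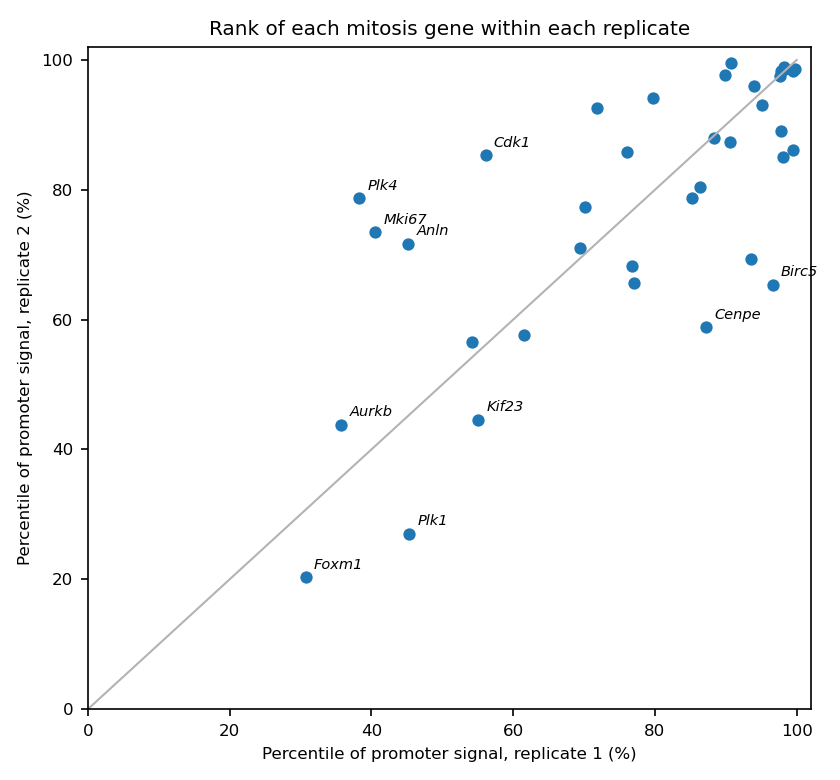
Percentile of promoter signal in the pseudoreplicated list of replicate 1 (x axis, %) and replicate 2 (y axis, %) for the 38 genes (points), with the line of equal rank in grey. Plk4, Mki67, Anln and Cdk1 lie above the line, Birc5 and Cenpe below it, and Foxm1, Plk1 and Aurkb are low on both axes.

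The opening lay just upstream of the start in most members. The summit lay upstream of the nearest TSS in 36 of 38 members, against 73.9% of all genes with a promoter peak, and 1 to 200 bp upstream in 34 (62.8% of all genes). The median position was -59.5 bp, beside -40 bp over all genes with a promoter peak. Both exceptions were close to the start: Pttg1 at 1 bp and Cenpe at 2 bp downstream. Region width had a median of 1030 bp, beside 875 bp over all genes, and ran from 550 bp at Espl1 to 1503 bp at Incenp. A region serving another protein-coding gene was found for 4 members (Foxm1, Aurka, Cdca8 and Kif20a), beside 19.7% of all genes with a promoter peak.

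Most promoters of the set held the CHR word, and it lay close to the start of transcription. RefSeq promoter windows, from 250 bases before to 50 after a start, were matched by symbol for 31 members, with 34 windows in all. Ccna2, Cdc25c, Foxm1, Tpx2, Aurkb, Incenp and Kif20a were not matched. The CHR words (either strand; TTCGAA reads the same on both) were in 24 of the 31, against 19.4% of 16515 genes with a window and 16.4% of the 8919 of these that had a promoter peak in the conservative list. The reversed CHR (AAGTTT), a check of base composition, holds the letters of TTTGAA only. It was in 6 of 31, beside 15.4% and 13%. The reverse of TTCGAA was not searched, so the check covers fewer words than the CHR count. A CHR starting within 50 bases of the start was in 22 of 31, beside 4.95% of all genes and 4.44% of those with a promoter peak. With each site counted once per gene, from the nearest of its RefSeq starts, the members' 33 CHR sites had a median position of -5. Over all genes the median was -134.

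CCAAT boxes (CCAAT, either strand) were in 22 of 31 members (71%), against 42.1% of all genes and 44.2% of those with a promoter peak. The reversed word (TAACC) was in 13 of 31 (41.9%), beside 27.7% and 26.4%, so it too was more frequent in the members. The part of base composition in the CCAAT count was not tested. A window with both CHR and CCAAT box was found for 20 of 31 members, against 7.99% of all genes and 6.9% of those with a promoter peak. Both reversed words together were in 2 of 31, beside 4.09% and 3.33%. Within 100 bp of the promoter summit, where the choice of start site has no part, 18 of 31 members had the CHR (6.23% of genes with a promoter peak), 23 a CCAAT box (36.4%) and 16 both words (2.83%). The reversed CHR was there in 5 of 31, also above its share of genes with a promoter peak (5%), and an E2F word in 1 (2.97%). A match is a description of the letters and not a bound site.

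Spacing between the elements was counted within limits that, like the 50 bases above, were chosen after the positions were seen. A CHR beginning 20 to 40 bases after a CCAAT box was found in 11 of 31 members (Bub3, Ccnb2, Cdc20, Cdca8, Cdk1, Ect2, Kif11, Mki67, Prc1, Top2a and Ttk), beside 1.09% of all genes and 1.11% of those with a promoter peak. The 12 distinct pairs were 24 to 38 bases apart, with a median of 31.5. In Cdk1 the CCAAT box began at -48 and the CHR at -15, which is 33 bases, and this CHR lies beyond the end of the printed stretch. In Top2a pairs stood at -149 and -120, and at -58 and -23, of which the second is at the right end of the sequence printed above. Neighbouring CCAAT boxes 30 to 36 bases apart were in 6 of 31 members (Aurka, Ccnb1, Ccnb2, Cdca8, Cdk1 and Spc25), beside 2.54% and 3.87%. All 7 of these pairs were 32 to 34 bases apart.

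**Figure D4:**
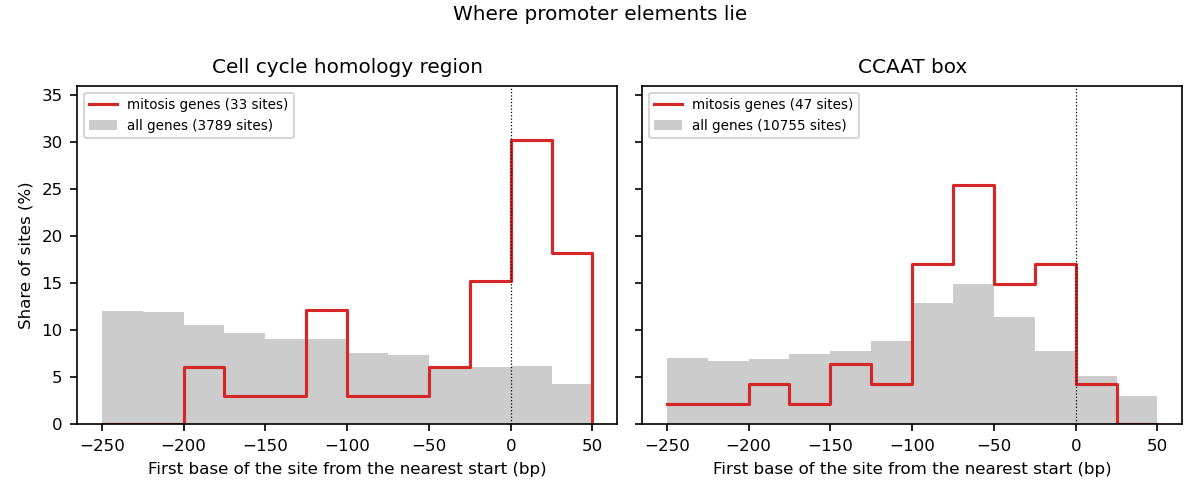
Share of sites (y axis, %) by position of their first base from the nearest RefSeq start (x axis, bp, bins of 25, dotted line at the start), for the CHR (left) and the CCAAT box (right), in all genes (grey bars) and in the 31 mitosis genes with a window (red line). Of the members' 33 CHR sites 30.3% start in the first 25 bases after the start, beside 6.23% over all genes, and 25.5% of their 47 CCAAT sites start in the bin from -75, the highest share.

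Against genes with a promoter peak, other words differed by fewer percentage points than the CHR and the CCAAT box. Against all genes, the GC box and the ETS core were also more frequent in the members. E2F factors drive the G1/S transition. Their words TTTCCCGC, TTTCGCGC, TTTGCCGC and TTTGGCGC were in 1 of 31 members (Cdk1), beside 3.32% of all genes and 4.92% of those with a promoter peak. The GC box (GGGCGG) was in 25 of 31 (80.6%), beside 51% and 69.7%. ETS cores (CCGGAA) were in 12 (38.7%), beside 21.5% and 33.1%, and the cAMP response element (TGACGTCA) in 2 (6.45%), beside 2.64% and 3.92%. Words of blood factors were near the share of genes with a promoter peak. GATA words (AGATAA or also TGATAA) were in 4 of 31, beside 17.7% and 11.8%, and the RUNX word (TGTGGT) in 4, beside 17% and 15%. A further ETS word, GGAAGT, was in 10, beside 28.3% and 33.4%. Both ETS words hold GGAA and can overlap each other.

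Among the members, median signal was close with and without the elements. It was 12.6 for the 24 with a CHR and 12.9 for the 7 without (Birc5, Ccnb1, Cenpe, Mad2l1, Nuf2, Plk4 and Pttg1). It was 12.9 for the 22 with a CCAAT box and 12.3 for the other 9. Among other genes with a window and a promoter peak, medians were 10 with and 9.87 without a CHR. They were further apart for the CCAAT box, 10.5 with and 9.46 without it. Neither word was in the windows of Birc5, Mad2l1, Nuf2, Plk4 and Pttg1. The accessible summit lay at -269 bp from the RefSeq start for Pttg1 and at -3877 bp for Kif2c, so the windows of these genes do not hold the summit. Within 100 bp of the summit Pttg1 had a CCAAT box and Plk4 a CHR.

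CpG content moved with accessibility at promoters, by classes also set after values were seen, and its part in the counts above was not tested beyond the values here. A CpG-rich window (at least 50% G and C and an observed to expected CpG ratio of at least 0.6) was found for 26 of 31 members, against 50.1% of all genes and 75% of those with a promoter peak. In the CpG-rich class 80.8% of 8279 genes had a promoter peak in the conservative list, and outside it 27.1% of 8236. Among CpG-rich genes with a peak, the 26 members had a median percentile of 77.6, and 14 of them were in the top 25%. The other 5 members were Spc25 (16.52), Kif2c (14.68), Bub1b (13.57), Top2a (13.29) and Cenpa (12.47), with a median of 13.6 beside 9.55 for genes of that class with a peak. This median includes Kif2c, whose window does not hold its summit, so its class does not describe the DNA at its peak.

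Other genes of the pathway, from lists that overlap none of the 38, had promoter peaks nearly as often. Of 111 genes in 6 lists, 108 had one in the conservative list, beside 51.5% of all genes, with a median signal of 11.3 and a median percentile of 68.8. All 32 other centromere and kinetochore genes had one, led by Oip5 (16.05), Sgo2a (15.57), the guard of centromeric cohesion, and Cenpw (15.52). Nusap1, of the spindle and cytokinesis list, had the same values as Oip5 in each peak list, so a single region may be counted for both genes. All 18 genes of the anaphase-promoting complex and its partners had one, led by Ube2c, its ubiquitin-conjugating enzyme (14.86), Cdc23 (14.80) and Anapc5 (14.61). All 8 condensin genes had one, led by Smc2 (15.53), Ncapg (14.51) and Ncapg2 (12.65). The kinases, phosphatases and partners of mitotic entry had one in 13 of 13 cases, led by Ccnf (16.00), Cdc25a (13.47) and Cks1b (10.98). Of 20 other spindle and cytokinesis genes 19 had one, led by the microtubule polymerase gene Ckap5 (17.95), the chromokinesin gene Kif4 (17.93) and Gtse1 (16.58). Kif14, a midbody motor, had none in the conservative list or in the IDR or pseudoreplicated list of either replicate.

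Genes of the regulators themselves had the lowest median signal of the 6 lists, near those of the mitotic entry and condensin lists. Of 20 MuvB, B-MYB, E2F and NF-Y genes 18 had a promoter peak in the conservative list, beside 51.5% of all genes. Their median signal was 9.71 and their median percentile 48.8, beside a median signal of 9.81 over all genes with a promoter peak. The mitotic entry list had a median of 10.2 (percentile 54.7) and the condensin list 10.6 (59.3). Nfyc, an NF-Y subunit, had 15.31 and Mybl2, which encodes B-MYB, had 12.40, whereas Lin54, the MuvB subunit that contacts the CHR, had 7.65. Rbl1, encoding the pocket protein p107, had a peak in replicate 1 (8.22) and in the pseudoreplicated list of replicate 2 (4.45), and E2f2 had one only in the pseudoreplicated list of replicate 1 (4.16). Germline relatives of these genes and meiosis genes were mostly without a promoter peak in the conservative list. Of 18, 4 had one there, beside 51.5% of all genes: Stag3, a meiotic cohesin subunit (11.75), Rec8 (8.14), Msh5 (7.41) and Syce2 (6.85). The IDR lists held 5 of the 18 in replicate 1 (52% of all genes) and 3 in replicate 2 (45.6%). The pseudoreplicated lists held more, 7 in replicate 1 (63.4% of all genes) and 9 in replicate 2 (61.8%). Ccnb3 and Aurkc, germline relatives of the B cyclins and Aurora kinases, had none in the IDR or pseudoreplicated list of either replicate, and Ccna1, a relative of Ccna2, had one only in the pseudoreplicated list of replicate 1 (4.19). Lin54, Mybl2, Ccna1, Ccnb3, Aurkc and Nusap1 were picked after their values were seen.

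The CHR was unevenly spread over these lists. It was in 6 of 7 condensin genes with a window, 13 of 19 other spindle and cytokinesis genes and 12 of 27 other centromere and kinetochore genes, beside 19.4% of all genes. It was in 4 of 9 genes of mitotic entry, 7 of 17 regulators and 5 of 17 genes of the anaphase-promoting complex list. The reversed CHR (AAGTTT) was in 15.4% of all genes. It was in 2 of 7 condensin, 4 of 19 spindle and cytokinesis and 6 of 27 centromere and kinetochore genes. For mitotic entry it was in 2 of 9, for regulators in 3 of 17 and for the anaphase-promoting complex list in 0 of 17. The CHR and the CCAAT box together were in 7.99% of all genes. They were in 10 of 19 spindle and cytokinesis genes, 3 of 7 condensin genes and 9 of 27 centromere and kinetochore genes. They were in 3 of 9 genes of mitotic entry and 6 of 17 regulators. In the anaphase-promoting complex list they were in 2 of 17 (11.8%), near the share of all genes, namely Fbxo5 (EMI1), an inhibitor of the complex, and Ube2c. Of the germline and meiosis genes 3 of 17 had a CHR and 1, Smc1b, had both.

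Distal accessible regions were about as frequent around these genes as around all genes in the conservative list and in replicate 1. A distal region is one whose summit is over 1 kb from every protein-coding TSS. In the conservative list 25 of 38 members (65.8%) had 1 or more within 50 kb of their 5′-most TSS, and 59.7% of all protein-coding genes had. The IDR list of replicate 1 gave 25 members (62.3% of all genes). That of replicate 2 gave 23 of 38 (47.2%), where the members' share was further above that of all genes. The mean was 1.21 regions per member and 1.32 per protein-coding gene. At least 3 regions were found for 7 members (18.4%), against 19.3% of all genes. The 46 regions had a median signal of 8.23, beside 7.96 over all 20306 distal regions. Of the 46, 37 overlapped the IDR list of replicate 1 and 29 that of replicate 2, and all 46 overlapped the pseudoreplicated list of each.

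By distance, many of these regions lay closer to another gene. The nearest 5′-most TSS was the member's in 22 of 46 cases, 2 regions were inside the member's own gene (Ect2 and Espl1), and 29 were in no protein-coding gene. In the conservative list Aurkb and Pttg1 had most, with 4 each. In the IDR lists of replicates 1 and 2, Aurkb had 2 and 2 and Pttg1 had 3 and 1. Kif2c had the most in replicate 1, with 6. The Aurkb regions had signals of 5.89, 5.07, 4.12 and 7.73. The first 3 were at percentile 12.7 or lower among all distal regions and the last at 46.0. Those of Pttg1 had 8.01, 5.53, 8.98 and 10.84, the last at chr11:43385053-43385692, 40.7 kb downstream of its TSS and in no protein-coding gene. Cdk1 had 3, of signals 6.81, 11.71 and 8.30, all in no protein-coding gene and with Cdk1 as the nearest gene, and the one of 11.71 lay 31.5 kb downstream at chr10:69321276-69321566. Kif23 had 3, of signals 9.04, 7.49 and 10.61, the last at -1.4 kb from its TSS. The 3 around Foxm1 (8.19, 9.59 and 7.48) lay nearer to other genes, as did the 3 around Aurka (9.19, 10.95 and 8.24) and the 3 around Birc5 (5.76, 8.68 and 5.15).

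The distal region of highest signal was 38.7 kb from Kif20a at chr18:34663132-34663460 (13.41), in no protein-coding gene and nearest to Cdc23. Next came those of Knl1 (12.26, at -31.2 kb) and Cenpe (12.18, at -20.5 kb, in the IDR list of replicate 1 and not of replicate 2). A single region lay at -19.5 kb from Mki67, with Mki67 as nearest gene, a signal of 10.93 and presence in the IDR list of both replicates. Within 100 bp of these 46 summits, blood factor words were no more frequent than over all distal regions: RUNX in 9 (30.4% of all), GATA in 3 (14.6%) and ETS GGAAGT in 14 (35.1%). The CHR was in 2 of the 46, beside 11.6% of all distal regions.

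**Figure D5:**
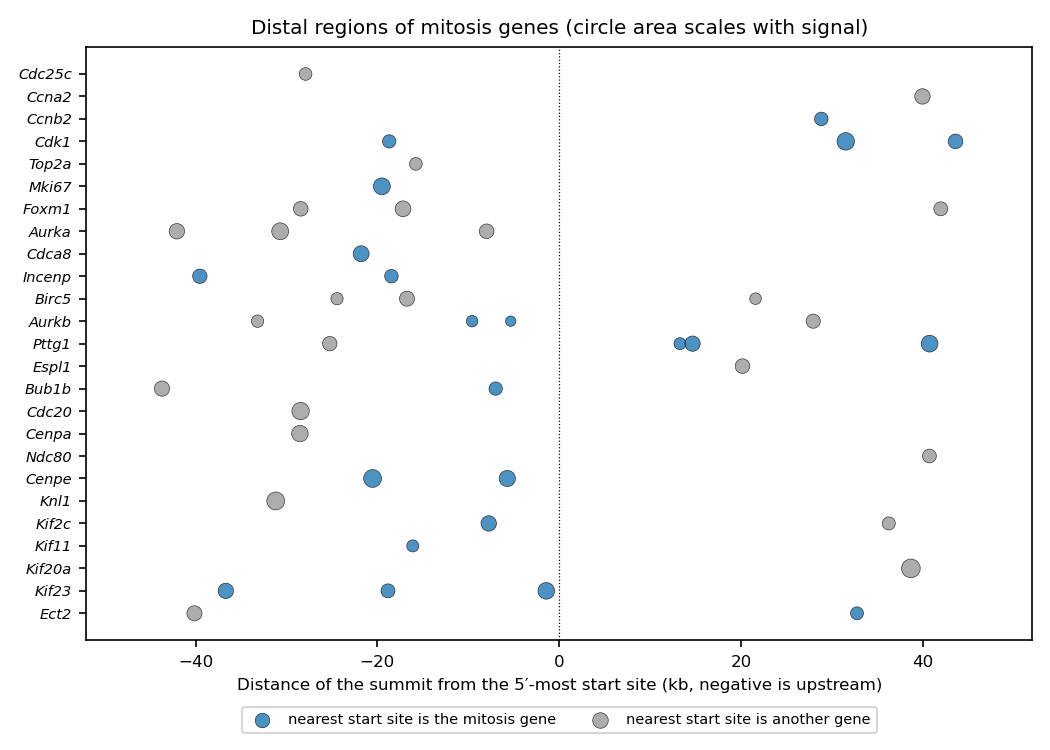
Distal regions of the 25 mitosis genes that had any (y axis), by distance of the summit from the 5′-most TSS (x axis, kb, negative is upstream), with circle area in proportion to signal, in blue where the mitosis gene has the nearest TSS and in grey where another gene has. Blue circles make up 22 of the 46, and the largest is the grey one 38.7 kb downstream of Kif20a.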

How the data were processed

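ATAC-seq peak lists of 2 libraries of 1 group were used, on mm10 per the deposited notes. No aligner, peak caller or transposase offset is named, so each is not given in the sources used here. Peak signal is the authors' deposited value, its control and scaling not stated, and was used to rank peaks within a list. The IDR score of the ranked lists was deposited by the authors and ranges up to 1000. Thresholded lists begin at 540. Per the deposited notes, single replicate lists were called on that library and series lists on both.

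Overlapping peaks were merged into regions, keeping the summit and signal of the highest peak. Promoter peaks had a summit within 1000 bp of a TSS of any protein-coding transcript (GENCODE M21, GRCm38.p6). Distal regions were counted within 50 kb of the 5′-most TSS. Sequence words were searched in the RefSeq promoter table (GRCm38.p6), whose windows matched the genome in 504 of 504 cases checked. Assignment and word search were tested on simulated data. Python 3.11.15, pandas 2.3.3 and pysam 0.24.0 were used.

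The members, lists and words were chosen with earlier results of these data known, so no enrichment was tested and shares stand beside those of all genes. Named by rule were the 10 members of highest and 5 of lowest signal, those without a peak or with one in the IDR list of 1 replicate only, and those with 3 or more distal regions. Other pathway genes were named where 5 or fewer lacked a peak, and as the 3 of highest signal per list. Remaining members are named by role. Alternatives were other peak lists, each replicate alone, signal above the median, other windows and TSS sets, and TTTGAA alone.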

Additional observations from a re-analysis of the deposited data

How the results depend on the processing

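The count of members with a promoter peak was 35 to 38 under all 10 alternatives, the lowest with peaks above the list's median signal only, where 35% of all genes had one. With 1 replicate left out it was 36 to 38. The count in both replicates' lists was 36 to 38 under 4 alternatives. The median promoter signal was 10.3 without replicate 1 and 13.9 without replicate 2, beside 8.01 and 10.8 over all genes with a promoter peak. The SD of the replicates' medians, 2.59, includes the difference in scale between their lists. Under the other alternatives the median was 12.9 or 13. Members with both CHR and CCAAT box numbered 16 to 21 of 31. In the longest window, 500 before to 100 after the start, it was 21, beside 23.4% of all genes. Members with a distal region numbered 17 to 34 under 8 alternatives (23 to 25 with 1 replicate left out), and the share of all genes moved with them, from 36.7% at 17 members to 80.1% and 82.1% at 34. It was 14 within 20 kb, beside 35.9% of all genes, because that window is narrower. No paired analysis was possible because the series has 1 group. Read depth is unknown, and a gene without a peak may be below what these libraries could call.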
